A study of Mus musculus with 12 samples.

Results

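The 9 genes described here encode the retinoic acid receptors Rara, Rarb and Rarg, the retinoid X receptors Rxra, Rxrb and Rxrg, the cellular retinoic acid binding proteins Crabp1 and Crabp2, and the retinol transporter Stra6. They were taken by gene symbol from the array's annotation, each as the transcript cluster that carries that symbol alone, and each of the 9 had 1 such cluster among the 22180 genes measured. The samples were 12 whole testes from mice of the C57BL/6N strain, aged 2 weeks, and the RNA of each was hybridised to an Affymetrix array of its own. The mutants were made with CRISPR/Cas9: 3 testes were Sox3-KO (KO), named for a knock-out of the SoxB1 transcription factor gene Sox3, and 3 were Sox3-Sox2KI (KI), named for a knock-in of its relative Sox2 at Sox3. They were set against 6 WT testes, of which WT 4, 5 and 6 were littermates of KO mice and WT 1, 2 and 3 were littermates of KI mice. No animal received a treatment. The sources used here do not say how many founders each mutant came from or whether any 2 testes came from 1 mouse, so p-values measure the spread between these testes.

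Retinoic acid is made from retinol within the testis and acts through nuclear receptors: a retinoic acid receptor (RAR) pairs with a retinoid X receptor (RXR), the pair sits on DNA at short direct repeats, and binding of the ligand swaps co-repressors for co-activators. In the mouse testis this signal drives spermatogonia to differentiate and starts meiosis, in part by turning on Stra8. The binding proteins Crabp1 and Crabp2 hold retinoic acid in the cytoplasm, and Stra6 brings retinol into cells from its plasma carrier.

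All values are on the log2 scale that the authors deposited, so a difference of 1 is a doubling of signal, and a difference is given as mutant minus WT with its standard error (SE). The middle values of the 12 arrays lay between 5.74 and 5.82. A level under 5.33, below which 95% of 1105 olfactory receptor genes lay, is called dim here, as that large family is mostly silent outside the nose. Every measured marker of Sertoli, Leydig, peritubular, stromal, endothelial and macrophage cells, of differentiating spermatogonia and of early meiosis was above that level, while 6 of 7 markers of epididymis and efferent duct were dim. Sox3 itself fell to between 6.57 and 6.65 in KO testes, against 7.21 to 7.36 in WT testes (limma difference -0.68, SE 0.09, adjusted p = 0.0161). These KO values were still above the dim level. Sox3 had 7.26, 6.75 and 6.95 in KI testes, and its difference from WT of -0.30 did not pass (adjusted p = 0.945). The positions of its probes were not known, so the Sox3 value does not check the KI label, and Sox2 was dim in all 12 testes. Since these are whole testes, fewer cells of a type and less RNA per cell cannot be told apart in any value here.

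None of the 9 genes passed limma's test in KO or in KI testes. Rara and Rxra came closest in KO testes, at 1.15-fold and 1.24-fold the WT level with adjusted p-values of 0.0905 and 0.0565. Of all 22180 genes, 4.86% passed in KO against WT at an adjusted p of 0.05, with 558 higher and 520 lower, and 0.0% passed in KI against WT. That KO count of 1078 genes became 3 without KO 1, 2323 without KO 2 and 2 without KO 3, and 18 to 36 without WT 1, 2, 3 or 5. In KO testes 2 of the 9 genes had an unadjusted p under 0.05, against 24.2% of all genes. In KI testes 1 of the 9 did, against 5.24% of all genes. The median difference of the 9 genes was -0.09 in KO testes and -0.04 in KI testes, beside medians over all genes of 0.04 and -0.0011.

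**Figure D1:**
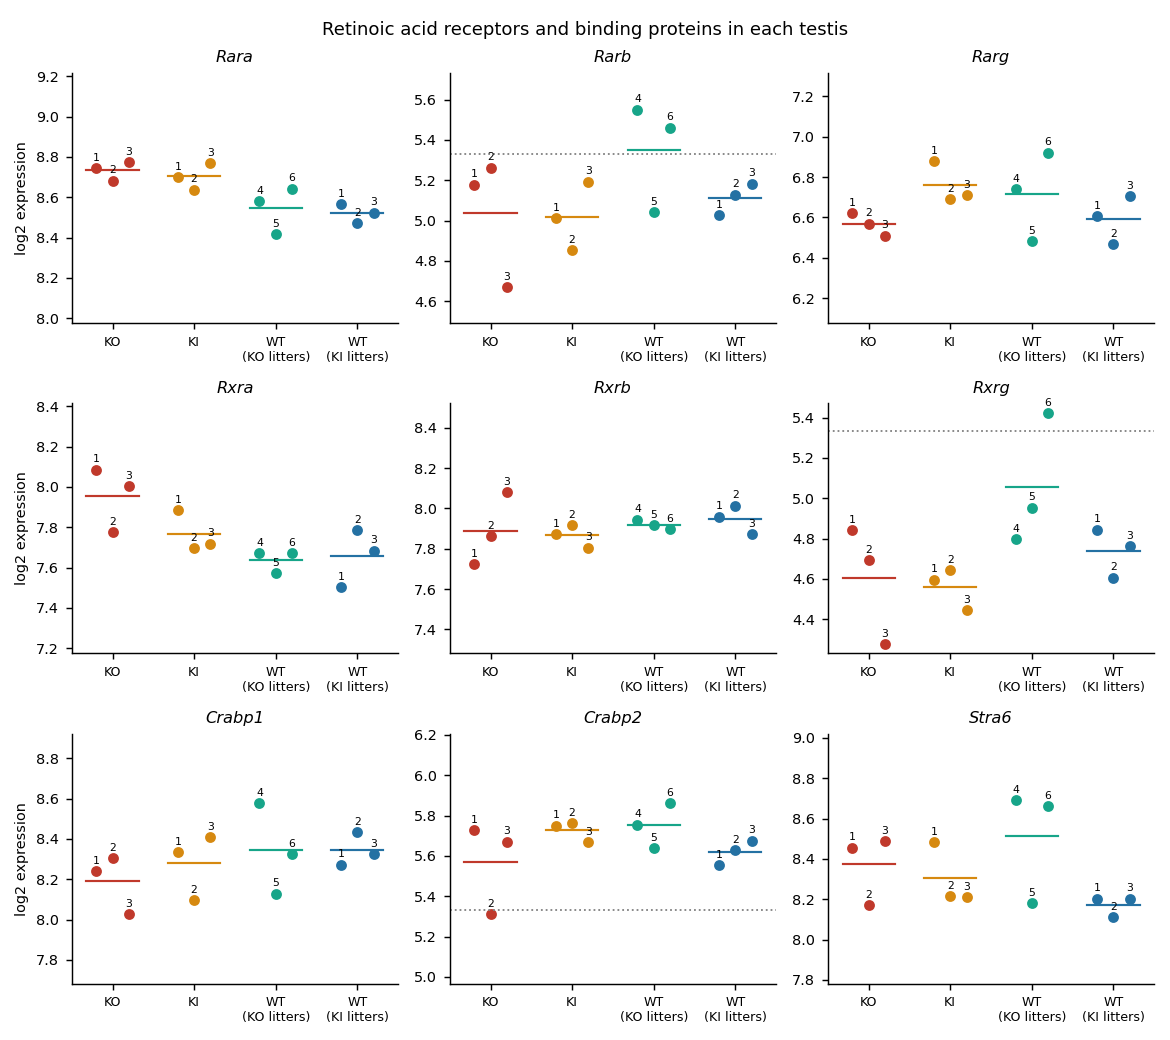
Log2 expression (y axis) of each of the 9 genes in each testis; points carry the replicate number of the labels, short lines are group means (n = 3 each), and the dotted line, where a panel reaches it, is the dim level of 5.33. Each panel spans the same number of log2 units around its own values. All 3 KO testes lay above all 6 WT testes for Rara, and no other gene of the 9 separated KO from WT. Over all genes 11.5% did so, in either direction.

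Rara encodes the RAR alpha, which is known from mouse Sertoli cells as well as germ cells. It had 8.74, 8.68 and 8.77 in KO testes and 8.70, 8.64 and 8.77 in KI testes, against 8.56, 8.47, 8.52, 8.58, 8.42 and 8.64 in WT 1 to 6. The KO values were all above the WT values, while KI 2, at 8.64, lay level with WT 6. The KO difference was 0.20 (SE 0.07, 95% interval 0.06 to 0.34), with an exact permutation p of 0.0238, the smallest that 84 splits of 3 and 6 testes can give. The KI difference was 0.17 (SE 0.07, 95% interval 0.03 to 0.31), with a limma adjusted p of 0.945 and an exact permutation p of 0.0476. Exact permutation p-values are given here without correction for the number of tests. KO and WT testes did not overlap, in either direction, in 11.5% of all genes and in 1 of the 9. KI and WT testes did not overlap in 3.1% of all genes and in none of the 9.

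Rarb encodes the RAR beta, itself a direct target of retinoic acid through a repeat in its promoter, and this gene was dim. In the RefSeq promoter windows (GRCm38.p6, 250 bases before to 50 after a gene's start) a direct repeat with a spacer of 5 bases (DR5) was searched on both strands, each unit of the repeat being AGGTCA or the same with G at its start, with T in front of TCA, or with both. Of 32851 windows, 32 held it (0.0974%), and of 18 windows for 8 of the 9 genes only that of Rarb did. The window of Cyp26a1, which encodes an enzyme that breaks down retinoic acid, held one too. The same search with spacers of 1 and 2 bases found repeats in 0.222% and 0.268% of windows and in none of the 18. The upstream bases of Rarb (chr14:16575477-16575566, minus strand) and Cyp26a1 (chr19:37697718-37697807, plus strand) are shown because they carry that repeat, in capitals; it lies 53 to 37 bases before the Rarb start and, read on the other strand, 32 to 16 bases before the Cyp26a1 start.

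Rarb: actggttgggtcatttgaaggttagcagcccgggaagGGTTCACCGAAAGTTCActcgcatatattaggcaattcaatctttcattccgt
Cyp26a1: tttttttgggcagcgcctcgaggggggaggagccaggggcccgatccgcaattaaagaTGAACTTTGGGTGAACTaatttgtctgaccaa

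Rarb, whose repeat is printed above, had 5.18, 5.26 and 4.67 in KO testes and 5.01, 4.85 and 5.19 in KI testes, against 5.03, 5.13, 5.18, 5.55, 5.04 and 5.46 in WT 1 to 6. Only WT 4 and WT 6 were over the dim level, and the groups overlapped. Its difference was -0.20 in KO testes (SE 0.15, adjusted p = 0.469) and -0.21 in KI testes (SE 0.15, adjusted p = 0.986). Cyp26a1, which shares the repeat, had 4.91, 5.17 and 5.56 in KO testes and 5.62, 5.58 and 5.79 in KI testes, against 5.31 to 5.70 in WT testes. Its KO difference of -0.28 did not pass (adjusted p = 0.203), and KO 1 and KO 2 lay under all WT testes. Both were under the dim level, as was WT 5 at 5.31, and the mean of Cyp26a1 over all testes was only 5.465.

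Rarg encodes the RAR gamma, the RAR known from mouse spermatogonia that are about to differentiate. It had 6.62, 6.57 and 6.51 in KO testes and 6.88, 6.69 and 6.71 in KI testes, against 6.61, 6.47, 6.70, 6.74, 6.48 and 6.92 in WT 1 to 6. Both mutant groups lay within the WT range, the KO testes in its lower part. The difference from WT was -0.09 in KO testes (SE 0.10, adjusted p = 0.633) and 0.11 in KI testes (SE 0.10, adjusted p = 0.986).

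Rxra encodes the RXR alpha, a partner for RARs and for many other nuclear receptors. It had 8.09, 7.78 and 8.01 in KO testes and 7.88, 7.70 and 7.72 in KI testes, against 7.50, 7.79, 7.68, 7.67, 7.57 and 7.67 in WT 1 to 6. KO 1 and KO 3 lay above every WT testis, and KO 2 lay just under WT 2. The KO difference of 0.31 (SE 0.09, 95% interval 0.12 to 0.49) was the largest KO difference among the genes above the dim level, with an exact permutation p of 0.0476. Without KO 2 it was 0.40 and passed (adjusted p = 0.0192), beside 10.5% of all genes. It did not pass without KO 1 (0.24, adjusted p = 0.2045) or without KO 3 (0.28, adjusted p = 0.1975). With dim genes left out it passed at its own size (adjusted p = 0.0282), as did Rara (adjusted p = 0.0448), beside 15.1% of the genes tested. The KI difference of Rxra was 0.12 (SE 0.09, adjusted p = 0.986), and only KI 1 lay above all WT testes.

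Among lists of somatic cell markers, those of Sertoli cells, interstitial stroma and peritubular cells were also highest in KO 1 and KO 3. The mean of 15 Sertoli markers was 9.97, 9.80 and 10.01 in KO 1 to 3 and 9.66 to 9.84 in KI testes, against 9.62 to 9.80 in WT testes. Of these markers 2 rose in KO testes and none fell, with a median difference of 0.23 (0.04 over all genes). The mean of 7 interstitial stroma markers was 9.86, 9.47 and 9.92 in KO 1 to 3 and 9.33 to 9.48 in KI testes, against 9.14 to 9.54 in WT testes, and 2 of the 7 rose. KO 2 was thus the lowest KO testis on the Sertoli and stroma lists, as it was for Rxra, Rara, Crabp2 and Stra6. The share of all genes with KO 2 lowest of the KO testes was not counted. Of 8 measured Leydig markers 1 rose, and their mean had another order, with 8.96 in KO 1 and KO 3 and a higher value in KO 2, against 8.20 to 8.93 in WT testes. Of 7 peritubular, 6 endothelial and 7 macrophage markers none passed, with medians of 0.14, 0.13 and 0.11. The peritubular mean was 8.68, 8.58 and 8.70 in KO 1 to 3 and 8.50 to 8.59 in KI testes, against 8.39 to 8.58 in WT testes. KO 2 was the lowest KO testis on the peritubular, endothelial and macrophage lists too, though KI 1 lay above KO 1 on the endothelial and macrophage lists. None of these markers was at 0 or dim, and their part in the values of Rara and Rxra was not tested.

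Rxrb encodes the RXR beta, which mouse genetics ties to Sertoli cells. It had 7.72, 7.86 and 8.08 in KO testes and 7.87, 7.92 and 7.81 in KI testes, against 7.96, 8.01, 7.87, 7.94, 7.92 and 7.90 in WT 1 to 6. The KO testes spread on both sides of the WT testes, with KO 1 lowest and KO 3 highest of all 12. The differences were -0.05 in KO testes (SE 0.08, adjusted p = 0.765) and -0.07 in KI testes (SE 0.08, adjusted p = 0.986).

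Rxrg encodes the RXR gamma, best known from brain and muscle, and was dim. It had 4.84, 4.69 and 4.28 in KO testes and 4.60, 4.64 and 4.45 in KI testes, against 4.84, 4.61, 4.76, 4.80, 4.95 and 5.42 in WT 1 to 6. Only WT 6 was over the dim level. The difference was -0.29 in KO testes (SE 0.16, adjusted p = 0.292) and -0.34 in KI testes (SE 0.16, adjusted p = 0.949), values that lie near the array's background. In KI testes its exact permutation p was 0.0476, the same as that of Rara.

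Crabp1 encodes a cytoplasmic binding protein that also carries retinoic acid to the enzymes that break it down. It had 8.24, 8.31 and 8.03 in KO testes and 8.33, 8.10 and 8.41 in KI testes, against 8.27, 8.43, 8.33, 8.58, 8.13 and 8.32 in WT 1 to 6. KO 3 and KI 2 lay lowest of all 12, beneath WT 5, and the other mutant testes were within the WT range. The differences were -0.15 in KO testes (SE 0.10, adjusted p = 0.404) and -0.07 in KI testes (SE 0.10, adjusted p = 0.987).

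Crabp2 encodes the binding protein that hands retinoic acid to RARs in the nucleus, and its mean of 5.67 was only a little over the dim level. It had 5.73, 5.31 and 5.67 in KO testes and 5.75, 5.76 and 5.67 in KI testes, against 5.55, 5.63, 5.68, 5.76, 5.64 and 5.86 in WT 1 to 6. KO 2 was the single testis under the dim level, and the groups otherwise overlapped. The differences were -0.11 in KO testes (SE 0.10, adjusted p = 0.507) and 0.04 in KI testes (SE 0.10, adjusted p = 0.989).

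Stra6 encodes the membrane receptor that takes up retinol from its plasma carrier Rbp4, and is itself induced by retinoic acid. It had 8.46, 8.17 and 8.49 in KO testes and 8.48, 8.22 and 8.21 in KI testes, against 8.20, 8.11, 8.20, 8.69, 8.18 and 8.66 in WT 1 to 6. The WT testes fell into a high pair, WT 4 and WT 6, and 4 lower ones, and both mutant groups lay between these ends. The differences were 0.03 in KO testes (SE 0.14, adjusted p = 0.921) and -0.04 in KI testes (SE 0.14, adjusted p = 0.996).

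The precision of these values sets what could be seen. For KO against WT the 95% intervals of the 9 genes ran from 0.64-fold to 1.41-fold, and 7 of the 9 included no difference. For KI against WT they ran from 0.62-fold to 1.25-fold, and 8 of 9 included no difference. A p-value over the threshold does not show that levels were alike.

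**Figure D2:**
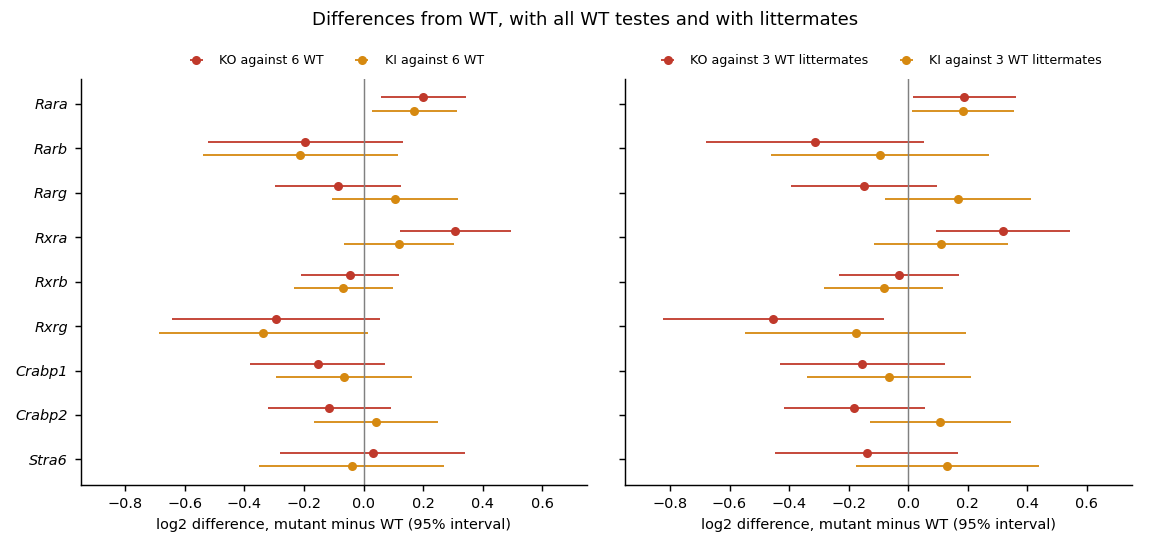
Log2 difference from WT (x axis) of each gene with its 95% interval from limma, against all 6 WT testes on the left and against 3 WT littermates on the right, KO in red and KI in orange. The Rara intervals lie to the right of 0 in all 4 comparisons, from a KO difference of 0.20 against 6 WT testes to a KI difference of 0.17, and the Rxra intervals do so for KO alone.

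Litter origin was then held fixed by setting each mutant against its own WT littermates. Rara was 0.19 higher in KO testes (SE 0.08) and 0.18 higher in KI testes (SE 0.08), and in each case all 3 mutant testes lay above all 3 littermates. Rxra was 0.32 higher in KO testes (SE 0.10), again with no overlap, and 0.11 higher in KI testes (SE 0.10), with overlap. Stra6 was 0.13 higher in KI testes (SE 0.14) with no overlap, though its lowest KI value of 8.21 stood beside 8.20 in the highest littermate. None of these passed limma, with adjusted p-values of 0.283 and 0.201 for Rara and Rxra in KO testes, and 0.930 and 0.931 for Rara and Stra6 in KI testes. Their exact permutation p was 0.1 in each case, the smallest that 20 splits of 3 and 3 testes can give.

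Such separations were common in this design. KO testes and their littermates did not overlap, in either direction, in 17.3% of genes, and KI testes and theirs in 14.4%, beside 2 of the 9 genes in each case (Rara and Rxra in KO, Rara and Stra6 in KI). By limma 0.00902% of genes passed in KO against littermates (2 genes, neither of them among the 9), and 0.0% passed in KI against littermates. Unadjusted p-values under 0.05 were given by 15.7% and 4.51% of genes. Rxrg was 0.45 lower in KO testes than in littermates (SE 0.17, adjusted p = 0.244), with overlap through KO 1, and it is dim.

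The mutant effects were also compared with each other inside litter origin. For Rara the KO effect minus the KI effect was 0.00 (95% interval -0.24 to 0.25). For Rxra it was 0.21 (95% interval -0.11 to 0.53, adjusted p = 0.875). For Rarg the difference was -0.32 (95% interval -0.66 to 0.03), with the smallest p of the 9 genes but an adjusted p of 0.848. None of the 9 passed, and 0.0% of all genes did, with 5.83% at an unadjusted p under 0.05.

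KI and KO testes were set side by side directly, although they come from different litters, so that genotype and litter origin cannot be told apart. Rarg had 6.88, 6.69 and 6.71 in KI testes and 6.62, 6.57 and 6.51 in KO testes, with no overlap and a difference of 0.19 (SE 0.11, adjusted p = 0.384, exact permutation p = 0.1). KI and KO testes did not overlap, in either direction, in 22.1% of genes and in 1 of the 9. Rxra was lower in KI testes by -0.19 (SE 0.10, adjusted p = 0.332), with KI 2 and KI 3 under every KO testis. Rara differed by -0.03 (SE 0.08, 95% interval -0.20 to 0.13). None of the 9 passed in KI against KO, and 0.0% of genes did, although 18.0% had an unadjusted p under 0.05.

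The WT testes of the 2 litter origins were compared as well, to show how much the 9 genes vary without a mutation. Stra6 averaged 8.51 ± 0.29 in WT testes of KO litters and 8.17 ± 0.05 in WT testes of KI litters (SD, n = 3 each), a difference of 0.34 that was larger than any KO or KI difference from all WT among the genes above the dim level. It did not pass (adjusted p = 0.891, exact permutation p = 0.3), and WT 5 lay among the testes of KI litters at 8.18. WT 4 and WT 6 were the 2 highest WT testes for 5 of the 9 genes (Rara, Rarb, Rarg, Crabp2 and Stra6), a pattern found in 14.0% of all genes. That pair is the one seen in the Stra6 values, no other pair was counted, and the share was not tested. Rarb is dim. The median difference of the 9 genes between WT origins was 0.12, beside 0.01 over all genes. No gene of the 9 passed between WT litters, and 0.0% of all genes did, with 5.29% at an unadjusted p under 0.05. The WT origins overlapped in all 9 genes, while 11.7% of all genes had no overlap.

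In the order of group means, Rara and Rxra ran KO, KI and then both WT origins, with means for Rara of 8.73, 8.70, 8.55 and 8.52. For Rara the neighbours KO and KI overlapped, as did KI and WT of KO litters and as did the WT origins. For Rxra each neighbour overlapped the next. Rarb, Rxrb, Rxrg and Crabp1 had both WT origins above both mutants, and neighbours in each order differed by less than the larger of their SDs. Rarg was highest in KI and lowest in KO testes, while Crabp2 was highest in WT of KO litters and lowest in KO testes. Stra6 was highest in WT of KO litters and lowest in WT of KI litters, with both mutants between.

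Genes most like each of the 9 over the 12 testes were named by the highest Pearson r among 14546 genes above the dim level, as a description of arrays that share 4 groups and 1 normalization. For Rara these were Nhsl1 (0.96), Fam168a (0.94) and Mapk1ip1l (0.94). For Rxra they were Cables1 (0.94), Lsr (0.93) and 4931414P19Rik (0.93), and for Rxrb Xpo5 (0.93), Gmps (0.90) and Vars2 (0.88). Rarg went most closely with 4831440E17Rik (0.88), Lrp6 (0.86) and Csnk2a1 (0.86). Crabp1 went with Naif1 (0.89), Zfp182 (0.87) and Anapc13 (0.83), Crabp2 with C1ql1 (0.88), Slfnl1 (0.86) and C86187 (0.85), and Stra6 with Inka2, Rnpepl1 and Nkain1 (0.91 each). None of the 9 genes was among the 3 closest to another of them, and Rarb and Rxrg, being dim, were not matched.

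The rest of the retinoic acid pathway was described from 4 lists. Of 38 measured genes of retinoid metabolism and carriers, 2 rose, 3 fell and 33 did not pass in KO testes, with a median of 0.11. Of 25 co-regulators of the receptors 1 rose and 1 fell (median 0.03), of 12 nuclear receptors that pair with RXR 1 rose (median 0.12), and of 26 retinoic acid target genes 3 rose (median 0.04). Among all genes the median was 0.04 and 4.86% passed. In KI testes none of the 4 lists had a gene that passed, and the medians were -0.0080, 0.07, 0.08 and 0.05. The target list includes Rarb, Crabp2 and Stra6, and Cyp26b1 and Nrip1 stand in 2 lists each.

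Ret, which encodes the GDNF receptor subunit of undifferentiated spermatogonia and is known as a retinoic acid target from other cells, had the smallest p of the 4 lists. It had 8.03, 7.86 and 8.18 in KO testes and 7.89, 7.55 and 7.69 in KI testes, against 7.18 to 7.51 in WT testes, with no overlap of either mutant with WT. Over all genes 11.5% did not overlap in KO against WT and 3.1% in KI against WT. The KO difference was 0.71 (SE 0.10, adjusted p = 0.0161), while the KI difference of 0.40 (SE 0.10) had an adjusted p of 0.945. Ret is also a marker of undifferentiated spermatogonia. Of the 12 genes on that list 3, Ret among them, rose in KO testes and 1 fell. The part of that cell type in the Ret value was not tested.

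Of the 5 metabolism and carrier genes that passed in KO testes, Cyp26b1 and Adh1 rose and Rbp4, Dgat1 and Rdh11 fell. Cyp26b1, which breaks down retinoic acid, rose to 10.12, 9.81 and 9.88 in KO testes, against 9.45 to 9.71 in WT testes (difference 0.39, SE 0.08, adjusted p = 0.0326). Adh1, an alcohol dehydrogenase able to oxidise retinol, rose to 8.63, 9.04 and 8.57, against 7.96 to 8.27 in WT testes (0.63, SE 0.12, adjusted p = 0.0311). In both cases every KO testis lay above every WT testis, and the KI testes had 9.49 to 9.68 and 7.75 to 8.27. Both genes were named for a small p, and 11.5% of all genes had no overlap of KO and WT testes.

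Rbp4, the plasma carrier that Stra6 binds, fell to 7.12, 7.01 and 6.94 in KO testes, against 7.17 to 7.38 in WT testes (-0.28, SE 0.07, adjusted p = 0.0395). KO and WT testes did not overlap, as in 11.5% of all genes. Dgat1, which can esterify retinol, fell by 0.47 (SE 0.12, adjusted p = 0.0418), with 7.57 to 8.12 in KO testes and 8.12 to 8.50 in WT testes. Rdh11, a retinal reductase, fell by 0.76 (adjusted p = 0.0439) but overlapped, with 7.36 to 7.73 in KO testes and 7.64 to 8.67 in WT testes. It was named because it completes the 5 genes of its list that passed, after its values were seen.

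Of 12 RXR partners 1 rose in KO testes, and of 25 co-regulators 1 rose and 1 fell, beside 4.86% of all genes that passed in either direction. Thra, the thyroid hormone receptor alpha that pairs with RXR, rose to 8.39, 8.10 and 8.55 in KO testes, against 7.70 to 8.04 in WT testes (0.49, SE 0.10, adjusted p = 0.0317). Nrip1, a ligand-dependent co-repressor that is also induced by retinoic acid, rose to 9.14, 9.07 and 9.28, against 8.76 to 8.94 in WT testes (0.29, SE 0.07, adjusted p = 0.0350). Prame, whose human counterpart represses RAR signalling, fell to 7.56, 7.92 and 7.63 in KO testes, against 7.88 to 8.32 in WT testes, with KO 2 inside the WT range (-0.42, SE 0.11, adjusted p = 0.0440). In KI testes the genes of smallest p in the other lists were Crebbp, a co-activator, with 0.19, Rdh1, a retinol dehydrogenase, with -0.18, and Ppard, a fatty acid receptor that pairs with RXR, with 0.16; none passed, at adjusted p-values from 0.945 to 0.949.

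The germ cell targets that define the retinoic acid response did not pass in KO testes. Stra8, which starts meiosis, had 8.32, 8.71 and 8.62 in KO testes and 8.70 to 8.89 in KI testes, against 8.55 to 8.98 in WT testes (KO difference -0.17, adjusted p = 0.337). Rec8, a meiotic cohesin, differed by -0.17 (adjusted p = 0.231) and Kit, the receptor of differentiating spermatogonia, by -0.18 (adjusted p = 0.113). For Kit every KO value (9.40 to 9.43) lay under every WT value (9.51 to 9.70), beside 11.5% of all genes without overlap in either direction. Dhrs3, a retinal reductase induced by retinoic acid, had 7.97, 7.57 and 8.16 in KO testes, against 7.58 to 7.77 in WT testes (0.22, adjusted p = 0.225).

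**Figure D3:**
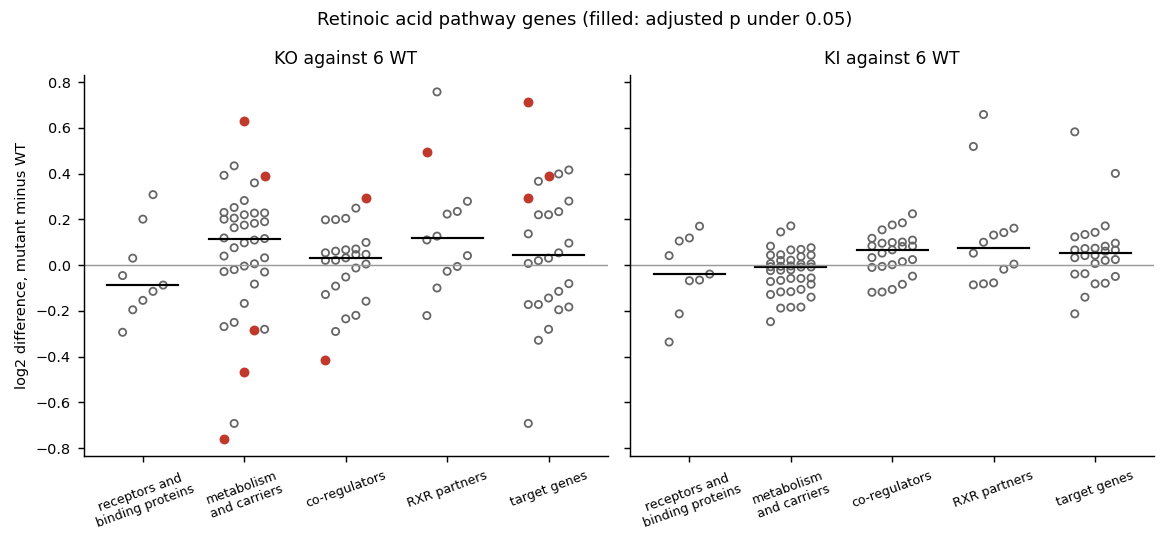
Log2 difference from 6 WT testes (y axis) of each measured gene of the 9 receptors and binding proteins and of 4 pathway lists (x axis), for KO on the left and KI on the right; filled points passed limma at an adjusted p of 0.05 and black lines are list medians. The filled points are in KO only and none is among the 9 genes, while Ret, at 0.71, is the highest filled point among the target genes.

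Markers of meiotic germ cells moved with genotype as well. Of 12 early meiosis markers 10 fell in KO testes and none rose (median -0.93), and their mean was 7.92 to 8.71 in KO testes and 8.79 to 9.13 in KI testes, against 8.91 to 9.39 in WT testes. Of 12 pachytene and later markers 4 fell (median -0.97), with means of 5.99 to 6.66 in KO testes and 6.84 to 7.31 in KI testes, against 6.54 to 7.63 in WT testes. WT 4 and WT 6, the highest WT testes for Stra6, were the lowest WT testes on that list, at 6.69 and 6.54. Of 8 markers of differentiating spermatogonia 2 fell, and their mean was 8.47 to 8.68 in KO testes and 8.73 to 8.80 in KI testes, against 8.72 to 8.85 in WT testes. Of the 12 pachytene and later markers 2 were dim (Pgk2 and Ccna1). The part of these markers in the values of the 9 genes was not tested.

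**Figure D4:**
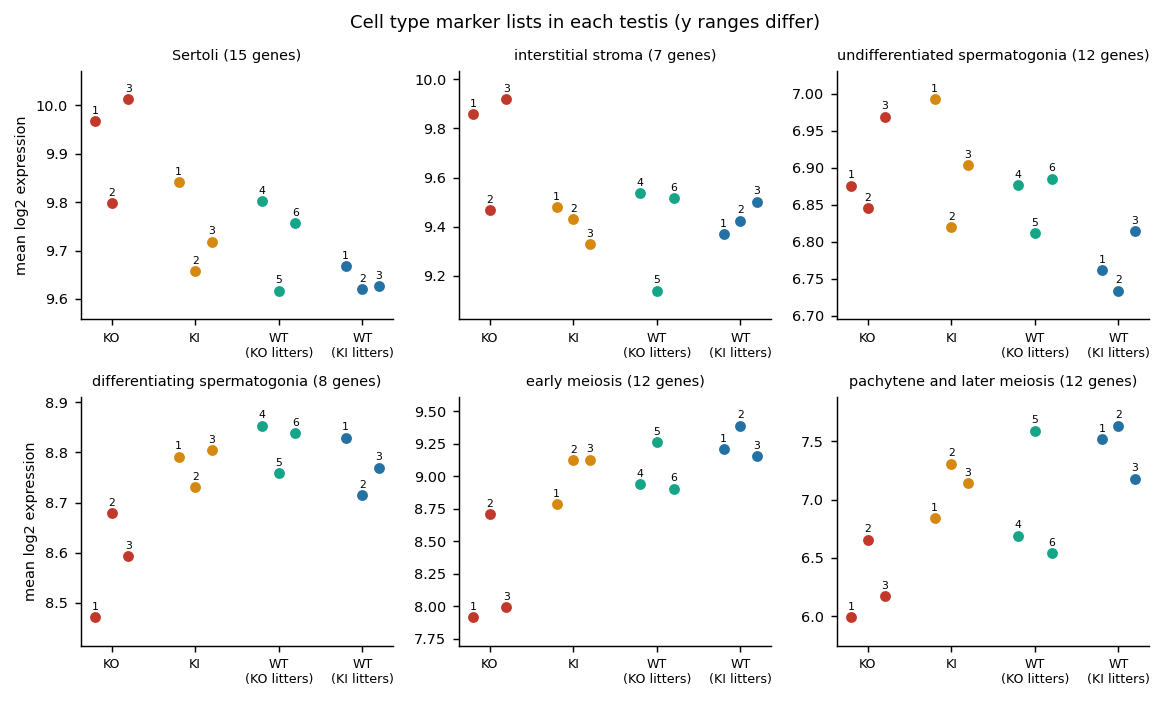
Mean log2 expression (y axis, with a range of its own in each panel) of 6 marker lists in each testis, numbered by replicate and grouped as KO, KI, WT of KO litters and WT of KI litters. Sertoli and stroma lists are highest in KO 1 and KO 3, and the early meiosis list lies at 7.92 to 8.71 in KO testes, under all WT testes.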

How the data were processed

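RNA of 12 testes was hybridised to Affymetrix arrays after labelling with the WT PLUS kit, per the labels' protocols. The deposited values are log2 expression per transcript cluster; per the submitters' processing notes, the tools were RMA, the Affymetrix Expression Console and Partek 6.6, whose roles are not stated. RMA gives arrays a common distribution, so differences are relative within an array. Of 41345 clusters 23521 had 1 gene symbol in the platform annotation, 1814 had several and 16010 had none; a gene was its single-symbol cluster of highest mean. Probe positions, and so isoforms, were not known.

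Differences were tested with limma 3.58.1 in R 4.3.3 (lmFit, eBayes, two-sided) with all 12 arrays, in 3 genotype groups or, for littermate comparisons, 4 label groups, with Benjamini-Hochberg adjustment over 22180 genes at 0.05 and no filter. Exact two-sided permutation tests over testes used scipy 1.17.1 in Python 3.11.15. Groups came from the labels, which call the replicates biological. The script was tested on simulated data. Arrays give no counts, so the number of arrays limits precision.

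The 9 genes, the pathway lists and the marker lists were chosen with earlier results of these data known. Named from each list were up to 4 genes of smallest p among those that passed, or else the gene of smallest p; Stra8, Rec8, Kit, Dhrs3, Cyp26a1 and Rdh11 were added after their values were seen. Alternatives covered centring, quantile normalization, filters on dim genes, array weights, the eBayes prior, the choice of clusters, each array left out, the WT origin and the replicate number as a block. Promoter sequences are those of RefSeq, GRCm38.p6; Crabp2 had no entry.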

Additional observations from a re-analysis of the deposited data

How the results depend on the processing

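With all genes tested, 0 of the 9 genes passed in KO against WT. Rara and Rxra (2 of 9) passed when only genes above the olfactory receptor level were tested (adjusted p = 0.0448 and 0.0282). In that setting 15.1% of the genes tested passed. They passed when only genes above the median were tested (0.0315 and 0.0198), beside 22.2% of the genes tested. Both filters left fewer genes tested. They also passed with an intensity trend and robust prior (0.0480 and 0.0290), beside 9.23% of all genes. The cause of the last was not tested. Leaving out 1 array at a time gave 0 to 1 of 9, the 1 being Rxra without KO 2. Over 21 alternatives the KO difference of Rara ran from 0.18 to 0.23 and that of Rxra from 0.24 to 0.40. In the other comparisons no alternative gave a call among the 9. The replicate number as a replicate block gave 0 in KI against KO and 0 in KI against littermates (Rara 0.18, adjusted p = 0.639). Deviations of same-numbered testes correlated at -0.03 to 0.14, and those of differently numbered testes at -0.19 to 0.08. In both comparisons the testes numbered 1 and those numbered 2 correlated highest, while those numbered 3 had -0.02 and -0.03. What the numbers stand for was not tested, and they were not taken as pairs.

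The count of all genes passing in KO against WT, 1078, rested on single arrays: it was 3 without KO 1, 2 without KO 3, 2323 without KO 2, 36, 35, 18 and 32 without WT 1, 2, 3 and 5, 1748 without WT 6, and 608 and 463 without KI 2 and KI 3. It was 8 with all clusters tested and 2201, 2459 and 2048 with the 2 filters and the robust prior. KO against littermates (2 genes) gave 605 without KO 2 and 0 to 41 otherwise, KI against KO (0) gave 721 without KO 2 and 0 to 57 otherwise, and the WT litters (0) gave 50 without WT 5 and 0 to 1 otherwise. In KO against WT the 4 lists had 0 to 9 (metabolism), 0 to 5 (co-regulators), 0 to 2 (RXR partners) and 0 to 8 (targets) calls, and 0 in KI against WT throughout. Of 21 alternatives, Ret passed in 18, Thra and Cyp26b1 in 14, Nrip1 and Adh1 in 13, Dgat1 and Rdh11 in 10, Rbp4 in 8 and Prame in 6, each with 1 sign.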
